A study of Caenorhabditis elegans with 12 samples.

Results

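Knockdown of vha-19 was compared with control knockdown in 6 of the 12 libraries of a Caenorhabditis elegans RNA sequencing study. The 3 libraries labelled with vha-19 RNAi and the 3 labelled with control RNAi were taken with all 18467 genes of the count table, and 17043 of those genes had counts high enough to test. All animals, controls included, were of the N2 strain, the laboratory wild type, with no other allele on their labels. RNAi was given by feeding, in which worms eat bacteria that make double-stranded RNA of the target gene. For the vha-19 group the food was a mixture of 25% vha-19 bacteria and 75% control bacteria, and the control group had control bacteria. Feeding began at the first larval stage (L1) and lasted 2.5 days at 20 °C, when worms reached the last larval stage or young adulthood. PolyA-enriched libraries were made from RNA of whole animals, so every value is a sum over all tissues. The other 6 libraries come from worms fed vha-6 or vha-16 bacteria in the same mixture, and serve to ask how vha-19 RNAi differed from them.

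The gene vha-19 encodes an accessory subunit of the vacuolar H+-ATPase (V-ATPase), related to the mammalian subunit Ac45 (ATP6AP1). The V-ATPase pumps protons into lysosomes and other compartments, with a cytosolic sector, V1, that breaks down ATP and a membrane sector, V0, that carries the protons. Lysosomal hydrolases need the acid that the pump provides, and the pump also serves as a platform for nutrient signalling at the lysosome. In the worm, lysosome-rich cells include those of the intestine, which digests food, stores fat and makes yolk for the oocytes.

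Each library held 21981854 to 22553227 counts in genes over the 12 libraries. Levels are given as CPM, which are counts per 1000000 counts, on library sizes that were scaled by TMM, edgeR's trimmed mean of M-values, and differences as log2 fold changes of vha-19 RNAi over control from edgeR's quasi-likelihood test, with Benjamini-Hochberg adjusted p over all genes. Means are given ± SD over the 3 libraries of a group. A gene is said to have risen or fallen where its adjusted p was under 0.05. Mean TMM factors were 1.12 in the vha-19 group and 0.77 in controls. Scaling by library totals moves the median of all genes up by 0.54 on the log2 scale, and DESeq2's size factors move it down by 0.17. The labels do not say whether replicates were separate cultures, so p-values reflect the spread among these 3 libraries a group and no more, and that spread may be technical (biological coefficient of variation 2.99%).

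The targeted transcript was lower in every vha-19 library but was still present. vha-19 (WBGene00021952, chromosome IV, 3369197 to 3373485, genome build WBcel235) had 224, 223 and 206 CPM under vha-19 RNAi, against 462, 472 and 475 CPM in controls. The groups do not overlap, as in 15330 of the 17043 genes tested. The mean of the vha-19 libraries was 46.3% of control (log2 fold change -1.11, SE 0.0339, edgeR adjusted p = 1.3e-25, but -0.57 with library totals). The subunit genes used as targets elsewhere in the study moved too. vha-6, the intestinal a subunit of V0, had 113.8, 118.7 and 114.4 CPM under vha-19 RNAi, against 405, 396 and 402 CPM in controls (log2 fold change -1.79, SE 0.0349, edgeR adjusted p = 2.76e-31). vha-16, the d subunit of V0, stood at 379 ± 6.69 CPM under vha-19 RNAi against 441 ± 12.14 CPM in controls (SD, n = 3 each; log2 fold change -0.22, but 0.32 with library totals).

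All 21 tested genes that encode V-ATPase subunits fell under vha-19 RNAi on TMM-scaled libraries, while 7 of them lie above 0 with library totals. Over all genes tested 89.9% were called, 42.2% were called lower and 24.9% were called lower by 2-fold or more. In V0 all 12 of 12 genes fell, 3 of them by 2-fold or more (median log2 fold change -0.70, against 0.19 over all genes), and in V1 all 9 of 9 fell, 0 by as much (median -0.77). With library totals these medians are -0.16 and -0.23. Summed levels of V0 genes were 2657 to 2718 CPM under vha-19 RNAi and 4336 to 4474 CPM in controls, and those of V1 genes were 2332 to 2385 CPM under vha-19 RNAi and 3834 to 4013 CPM in controls.

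Among the paralogues of the V0 a subunit, the change was uneven. vha-7, an a subunit of the skin, had 60.5, 65.6 and 66 CPM under vha-19 RNAi, against 204, 200.4 and 196.4 CPM in controls (log2 fold change -1.64, SE 0.0408, edgeR adjusted p = 2.97e-28). It had the lowest ratio to control of the V0 genes apart from vha-6. vha-5, the a subunit of the excretory canal and skin, was at a log2 fold change of -0.95 and unc-32, which is used in neurons, at -0.33, but 0.21 with library totals. vha-20, related to the accessory subunit ATP6AP2, was at a log2 fold change of -0.72. In V1, vha-12 and vha-13 encode the B and A subunits that form the catalytic head. vha-12 stood at 359.6 ± 2.82 CPM under vha-19 RNAi against 669.9 ± 10.16 CPM in controls. vha-13 stood at 491 ± 4.05 CPM under vha-19 RNAi against 906 ± 38.2 CPM in controls (SD, n = 3 each). The stalk subunit gene vha-8 (log2 fold change -0.77), the C subunit gene vha-11 (-0.90) and the H subunit gene vha-18 (-0.86) had similar values.

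**Figure D1:**
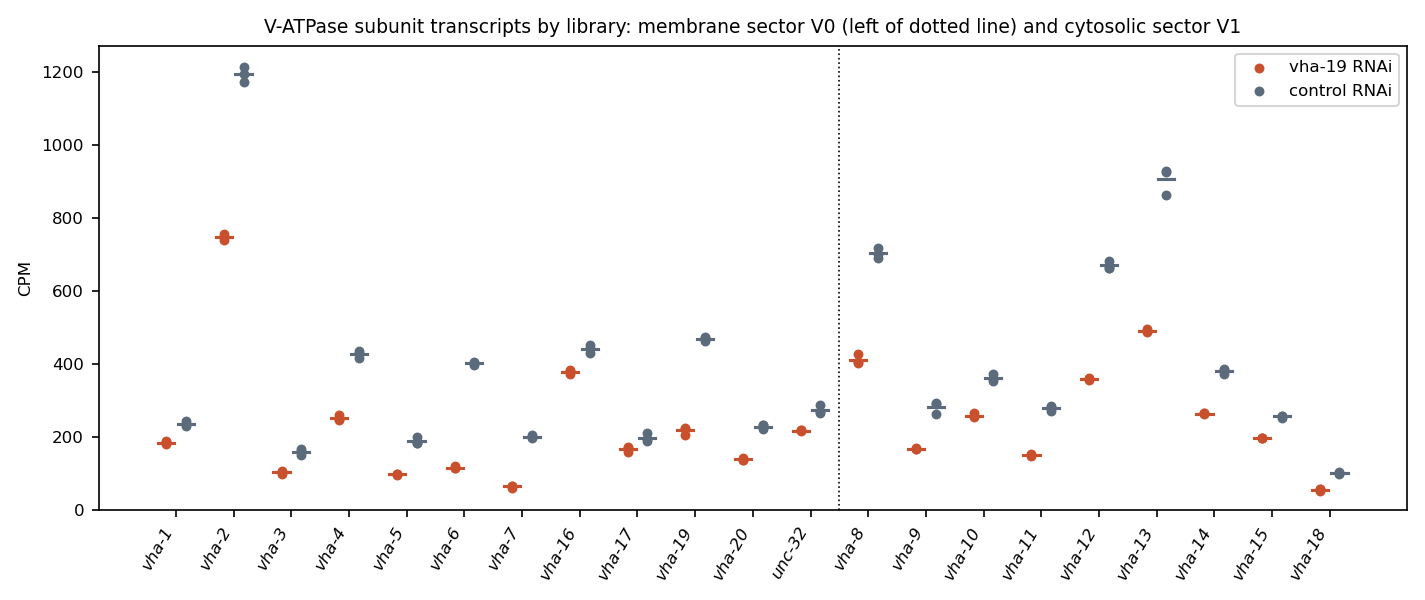
CPM of 21 V-ATPase subunit genes in each library (vertical axis, linear), for vha-19 RNAi (orange) and control RNAi (grey), with a bar at each mean of 3 libraries; genes left of the dotted line are of the membrane sector. Every gene is lower under vha-19 RNAi on this scale; with library totals 7 genes would lie above 0, among them vha-16 at 0.32 and unc-32 at 0.21 on the log2 scale.

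Transcripts changed on a wide scale. Of 17043 genes, 89.9% were called at adjusted p under 0.05 by edgeR: 8122 were higher (47.7%) and 7198 lower (42.2%). Differences of 2-fold or more were called in 5722 higher genes (33.6%) and 4248 lower genes (24.9%), and differences of 8-fold or more in 985 higher and 737 lower genes. The share of called genes that were higher is 53%, and library totals make it 65.3%. Library totals give 7629 higher and 2251 lower genes past 2-fold, and DESeq2's size factors give 5117 higher and 4919 lower. The 3 libraries of each group did not overlap in 15330 of the 17043 genes, so a lack of overlap is the usual case here. Because so many genes are called, a count of members in a gene list is read below against these shares.

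The direction differed by chromosome. Chromosome V had 40.2% of its 3531 genes higher and 20.7% lower by 2-fold or more, and chromosome X had 33.4% and 16.9% of 2362. On TMM-scaled libraries chromosomes I and III had more falls than rises of 2-fold or more, with medians of -0.23 and -0.28 against 0.58 on V. Library totals move the median of all genes up by 0.54 on the log2 scale. Values by chromosome were not tested with that scaling. Of the 13 tested genes annotated on the mitochondrial genome, of any biotype, 0 rose and 6 fell by 2-fold or more (median log2 fold change -0.84). Pseudogenes were higher by 2-fold or more in 42.8% of 680 and lower in 25.1%.

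Markers of developmental stage moved with the comparison. Of 37 oocyte and early embryo genes, 36 were lower by 2-fold or more, and their summed level was 3796 to 3963 CPM under vha-19 RNAi and 28555 to 29513 CPM in controls. Of 81 moulting genes, 49 were higher by 2-fold or more, with summed levels of 2537 to 2785 CPM under vha-19 RNAi and 1633 to 1692 CPM in controls. The adult collagen gene col-19 was at 742 CPM under vha-19 RNAi against 1427 CPM in controls. Values of other genes tied to stage are given below. bli-1, of the adult cuticle's struts, rose. nhr-23 and nhr-25, which encode receptors that drive moults, did not rise with the moulting list on TMM-scaled libraries. The part of developmental stage in the differences described here was not tested. In whole worms, fewer cells of a type and less RNA per cell cannot be told apart.

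The largest rise by log2 fold change was that of rab-11.2, which encodes a small GTPase of the Rab11 type that acts in recycling endosomes. It had 296, 282 and 280.1 CPM under vha-19 RNAi, against 0.234, 0.236 and 0.954 CPM in controls. Control libraries hold almost none of it (log2 fold change 9.22, SE 0.101, edgeR adjusted p = 3.16e-38). The leading rises and falls by log2 fold change were chosen among genes whose groups do not overlap. Another small GTPase gene, arf-1.1 (current name warf-1), of the Arf family that recruits vesicle coats, had 760.0, 783 and 734 CPM under vha-19 RNAi, against 1.41, 1.36 and 2.68 CPM in controls. It too was nearly silent in every control library (log2 fold change 8.71, SE 0.0848, edgeR adjusted p = 1.77e-39). The tetraspanin gene tsp-1, whose product spans membranes, had 250.3, 259 and 253 CPM under vha-19 RNAi, against 0.586, 0.825 and 1.31 CPM in controls (log2 fold change 8.12, SE 0.0904, edgeR adjusted p = 4.97e-38). Its relative tsp-2 stood at 128 ± 3.68 CPM under vha-19 RNAi against 0.868 ± 0.274 CPM in controls (SD, n = 3 each; log2 fold change 7.20).

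Saposin-like proteins bind membranes, and some act against bacteria. spp-20 had 88, 92 and 90.5 CPM under vha-19 RNAi, against 0.0586, 0.295 and 0.477 CPM in controls (log2 fold change 8.32, SE 0.128, edgeR adjusted p = 3.2e-34). spp-21 rested on 2 pooled control counts and was 374-fold higher by pooled counts, with a 95% counting interval of 103 to 3094. Several leading genes have no described role in the tables used here. Among them, F22E5.6 had 220.4, 217 and 218.3 CPM under vha-19 RNAi, against 0.293, 0.354 and 1.31 CPM in controls (log2 fold change 8.38, SE 0.106, edgeR adjusted p = 1.46e-36). F33H12.7 stood at 443 ± 3.64 CPM under vha-19 RNAi against 1.38 ± 0.354 CPM in controls. T22F3.11 stood at 278 ± 9.74 CPM under vha-19 RNAi against 1.22 ± 0.29 CPM in controls (SD, n = 3 each). sdz-35, named as a transcript of the early embryo that depends on SKN-1, stood at 171 ± 6.11 CPM under vha-19 RNAi against 0.67 ± 0.174 CPM in controls (SD, n = 3 each). Y37H2A.11 reached 45.7, 49.5 and 45.1 CPM in vha-19 libraries, against 0.0586, 0.059 and 0.179 CPM in controls (log2 fold change 8.81, SE 0.162, edgeR adjusted p = 5.81e-32). It lies 1167 bases from Y37H2A.14 on the same strand of chromosome V, and Y37H2A.14 rose as well (1054 CPM under vha-19 RNAi against 10.9 CPM in controls, log2 fold change 6.60). Y57E12B.11 had 1 pooled control count and was 757-fold higher by pooled counts, with a 95% counting interval of 136 to 29930.0.

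Measured as reads gained, Y41C4A.11 led all genes. It had 5421, 5715 and 5546 CPM under vha-19 RNAi, against 16.9, 15 and 29.2 CPM in controls (log2 fold change 8.09, SE 0.0917, edgeR adjusted p = 7.28e-38). It took 0.608%, 0.642% and 0.621% of gene counts in the vha-19 libraries, against at most 0.00222% in a control library. The 10 genes with the largest gains in CPM together held 2.71% ± 0.0321 of gene counts in the vha-19 group and 0.315% ± 0.00439 in controls (SD, n = 3 each). They include rab-11.1, the other Rab11 gene, at 3209.6 ± 58.9 CPM under vha-19 RNAi against 1034 ± 22.4 CPM in controls. tts-1, a long noncoding RNA known from long-lived and dauer animals, stood at 1530.3 ± 48.7 CPM under vha-19 RNAi against 25.4 ± 2.64 CPM in controls. The galectin gene lec-8 stood at 1463 ± 54.3 CPM under vha-19 RNAi against 229.7 ± 7.71 CPM in controls. Chaperone genes of the endoplasmic reticulum were also among them, with enpl-1, an Hsp90-type chaperone, at 2200.1 ± 20.6 CPM under vha-19 RNAi against 1049 ± 16.486 CPM in controls. The calreticulin gene crt-1 stood at 2372 ± 4.53 CPM under vha-19 RNAi against 1308 ± 29.4 CPM in controls. The other members were T19D12.4 (2356 CPM under vha-19 RNAi against 50.9 CPM in controls), dod-19 (2264 CPM under vha-19 RNAi against 192 CPM in controls), Y54G2A.18 (2122 CPM under vha-19 RNAi against 170.0 CPM in controls) and Y37H2A.14.

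Of the 10 largest losses in CPM, 6 were those of the vitellogenin genes, which encode yolk proteins. Vitellogenins are made in the intestine of adult hermaphrodites and taken up by oocytes. The 6 vitellogenin genes held 0.44%, 0.511% and 0.502% of gene counts in vha-19 libraries, against 8.16%, 8.03% and 7.91% in controls. vit-6 had 1534, 1795 and 1769 CPM under vha-19 RNAi, against 39948, 39152 and 39119 CPM in controls (log2 fold change -4.54, SE 0.0501, edgeR adjusted p = 4.31e-38). vit-2 had 2301, 2681 and 2629 CPM under vha-19 RNAi, against 33146, 32882 and 32758 CPM in controls (log2 fold change -3.70, SE 0.047, edgeR adjusted p = 1.6e-36). These are the vitellogenin genes with the most reads left. vit-1 stood at 37.5 ± 1.72 CPM under vha-19 RNAi against 10466 ± 136 CPM in controls. vit-5 stood at 34.1 ± 2.29 CPM under vha-19 RNAi against 13747 ± 226 CPM in controls (SD, n = 3 each). vit-3 (log2 fold change -9.49) and vit-4 (-9.60) fell further still, but together with vit-5 these are near-identical copies, and the split of reads between them is uncertain. Reads that aligned to more than 1 place and were not counted made up 8.06 to 8.095% of all listed counts in vha-19 libraries and 15.13 to 15.35% in controls, and their part in these values was not tested. The yolk receptor gene rme-2, which acts in oocytes, stood at 61 ± 2.37 CPM under vha-19 RNAi against 754 ± 7.7 CPM in controls (SD, n = 3 each; log2 fold change -3.63).

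Among the other leading falls, pud-3 and pud-4 are named for proteins that are more abundant in daf-2 insulin receptor mutants, and as near-identical copies they share reads. pud-3 had 0.95, 0.396 and 0.516 CPM under vha-19 RNAi, against 651, 677 and 676 CPM in controls (log2 fold change -10.06, SE 0.0817, edgeR adjusted p = 1.99e-41), and pud-4 was at -9.24. acdh-2, an acyl-CoA dehydrogenase gene, had 0.198, 0.0396 and 0.119 CPM under vha-19 RNAi, against 40.3, 43.2 and 39.7 CPM in controls (log2 fold change -8.37, SE 0.153, edgeR adjusted p = 4.73e-32). No count of tag-276 was seen in any vha-19 library, against 8.21, 7.61 and 7.57 CPM in controls, so it was at least 197-fold lower, taking 3 counts over the group as the floor. skr-8, a Skp1-related gene of ubiquitin ligases with a close copy in skr-7, had 1 pooled count in vha-19 libraries and was 517-fold lower by pooled counts, with a 95% counting interval of 92.2 to 20480.0. The F-box gene fbxc-42 likewise had 1 pooled count and was 469-fold lower by pooled counts, with a 95% counting interval of 83.6 to 18590.0. C45H4.14 and T22B2.1 also had 1 pooled count each under vha-19 RNAi and were 451-fold (80.4 to 17890.0) and 379.9-fold (67.6 to 15060.0) lower.

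Among the 10 largest losses in CPM, which together held 1.71% ± 0.0155 of gene counts in the vha-19 group and 9.86% ± 0.117 in controls (SD, n = 3 each), were 4 genes other than vitellogenins. These were eef-1A.1, a translation elongation factor gene, at 7357 ± 185.95 CPM under vha-19 RNAi against 12685 ± 210.4 CPM in controls. hsp-1, the constitutive cytosolic Hsp70 gene, stood at 2981 ± 94.3 CPM under vha-19 RNAi against 5618 ± 75.3 CPM in controls. The others were cbd-1, an eggshell protein gene, at 219 ± 3.45 CPM under vha-19 RNAi against 2723 ± 30.1 CPM in controls. cgh-1, a germline RNA helicase gene, stood at 365 ± 11.4 CPM under vha-19 RNAi against 2681 ± 33.2 CPM in controls.

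**Figure D2:**
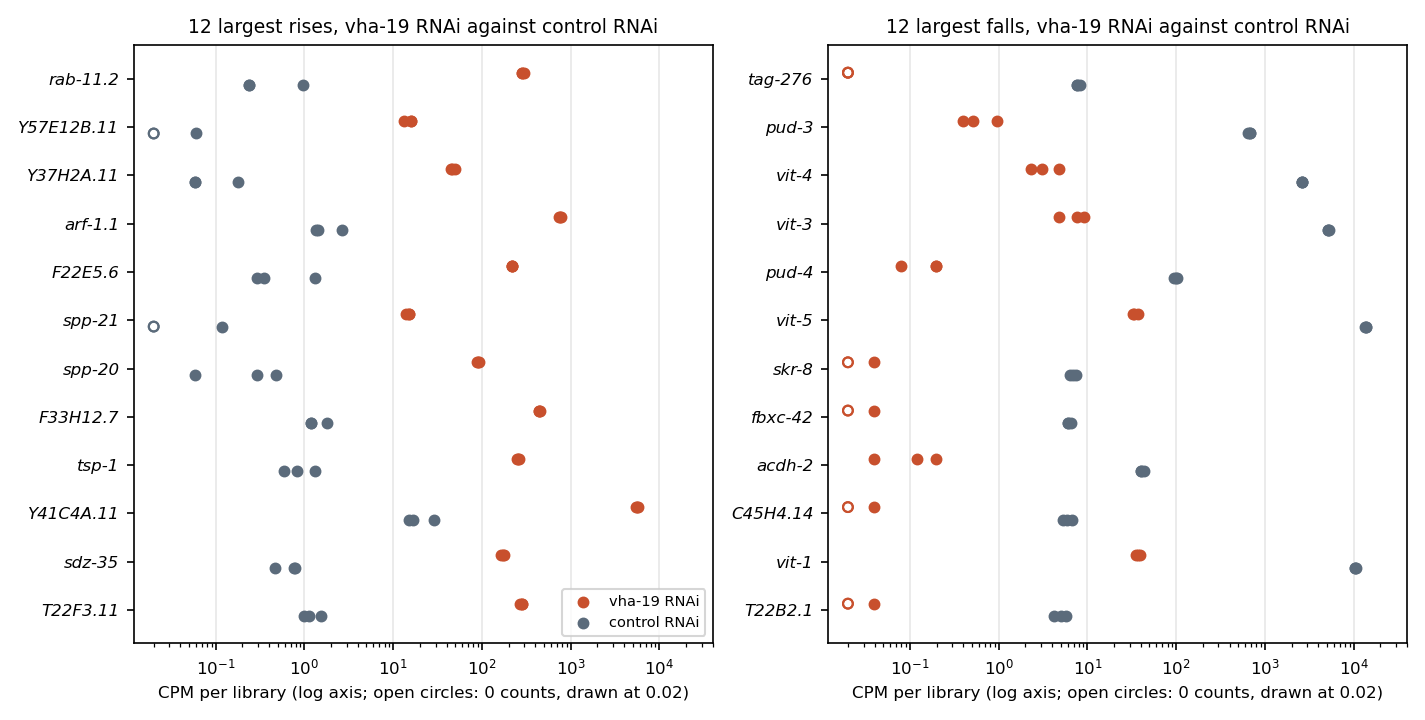
CPM in each library (horizontal log axis) of the 12 genes with the largest rises (left) and the 12 with the largest falls (right), vha-19 RNAi in orange and control RNAi in grey; open circles mark 0 counts and are drawn at 0.02. The 24 genes were chosen among those whose 3 vha-19 libraries lie apart from the 3 controls, so that gap is part of the choice.

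Each class of lysosomal hydrolase held rises and falls, where 33.6% of all genes rose and 24.9% fell by 2-fold or more. Of 17 aspartyl proteases 3 rose and 6 fell by 2-fold or more (median log2 fold change 0.30; 6 rises and 6 falls of 2-fold or more with library totals). Members that were barely detected in both groups count in this median. The summed level of the list was lower, at 4881 to 5047 CPM under vha-19 RNAi and 8350 to 8807 CPM in controls. Within this family of cathepsin D-like enzymes, asp-13 had 1.7, 2.85 and 1.67 CPM under vha-19 RNAi, against 485, 507 and 501 CPM in controls (log2 fold change -7.90, SE 0.0779, edgeR adjusted p = 2.13e-39). asp-1 stood at 742 ± 17.6 CPM under vha-19 RNAi against 2656 ± 127 CPM in controls. asp-2 stood at 92.9 ± 2.84 CPM under vha-19 RNAi against 788 ± 18.4 CPM in controls (SD, n = 3 each). The cathepsin D-like genes asp-3 (log2 fold change -0.74) and asp-4 (-0.18, but 0.36 with library totals) differed less, and asp-14 fell (-4.59). In the list 6 genes were called higher and 8 lower. Of the higher ones, asp-6 stood at 2140.5 CPM under vha-19 RNAi against 1737 CPM in controls. asp-17 stood at 107.9 CPM under vha-19 RNAi against 14.8 CPM in controls. Both were chosen after their values were seen.

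Of 12 cysteine cathepsins 4 rose and 5 fell by 2-fold or more (median log2 fold change 0.48). Their summed level was lower, at 3057 to 3124 CPM under vha-19 RNAi and 6383 to 6613 CPM in controls. The cathepsin B-like genes went opposite ways. cpr-3 had 533, 574 and 550.2 CPM under vha-19 RNAi, against 7.56, 8.31 and 9.3 CPM in controls (log2 fold change 6.04, SE 0.0685, edgeR adjusted p = 7.32e-38). cpr-1 had 43.4, 41 and 40.8 CPM under vha-19 RNAi, against 770.4, 795 and 809 CPM in controls (log2 fold change -4.25, SE 0.0388, edgeR adjusted p = 4.18e-40). Neither gene's groups overlap. cpr-4 rose to 739 ± 33 CPM under vha-19 RNAi against 312 ± 6.68 CPM in controls, and cpr-6 fell to 285 ± 4.89 CPM under vha-19 RNAi against 1409 ± 12.9 CPM in controls (SD, n = 3 each). The cathepsin L gene cpl-1 stood at 577 ± 23.7 CPM under vha-19 RNAi against 2119.7 ± 84.6 CPM in controls. cpr-8 was at a log2 fold change of 0.91 and cpr-5 at 0.09 but -0.085 with DESeq2's size factors.

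Of 8 acid lipase genes, whose products release fatty acids in lysosomes, 2 rose and 4 fell by 2-fold or more (median log2 fold change -1.31). Both rises were of genes with means under 5 CPM in each group. The summed level of the list was lower, at 88.5 to 96.8 CPM under vha-19 RNAi and 612 to 632 CPM in controls. lipl-5 had 44.8, 53.6 and 48.8 CPM under vha-19 RNAi, against 528, 543 and 549.8 CPM in controls (log2 fold change -3.46, SE 0.044, edgeR adjusted p = 1.6e-36). lipl-1 fell (log2 fold change -2.59), and lipl-3, with 3 pooled counts under vha-19 RNAi, was 146-fold lower by pooled counts, with a 95% counting interval of 49.6 to 714. lipl-4, known for its role in lipid signalling from lysosomes, was low in both groups, at 0.251 CPM under vha-19 RNAi against 0.373 CPM in controls (log2 fold change -0.56, edgeR adjusted p = 0.235).

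The enzymes of sphingolipids and glycans gave 4 rises and 7 falls of 2-fold or more among 24 genes (median log2 fold change -0.14, turning to 0.40 with library totals). The deepest falls were in the acid sphingomyelinase genes asm-3 (log2 fold change -7.51) and asm-2 (-3.33) and the glucocerebrosidase gene gba-4 (-6.08). gba-4 had 2.14, 1.39 and 1.79 CPM under vha-19 RNAi, against 121, 121.7 and 117 CPM in controls, and the groups do not overlap. The acid ceramidase gene asah-1 stood at 8.55 ± 1.14 CPM under vha-19 RNAi against 80.4 ± 1.33 CPM in controls. nuc-1, the lysosomal DNase II gene, stood at 31.5 ± 1.26 CPM under vha-19 RNAi against 132 ± 4.11 CPM in controls (SD, n = 3 each). A paralogue of gba-4, gba-3, was at 16.3 CPM under vha-19 RNAi against 15.9 CPM in controls (log2 fold change 0.03, edgeR adjusted p = 0.7).

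**Figure D3:**
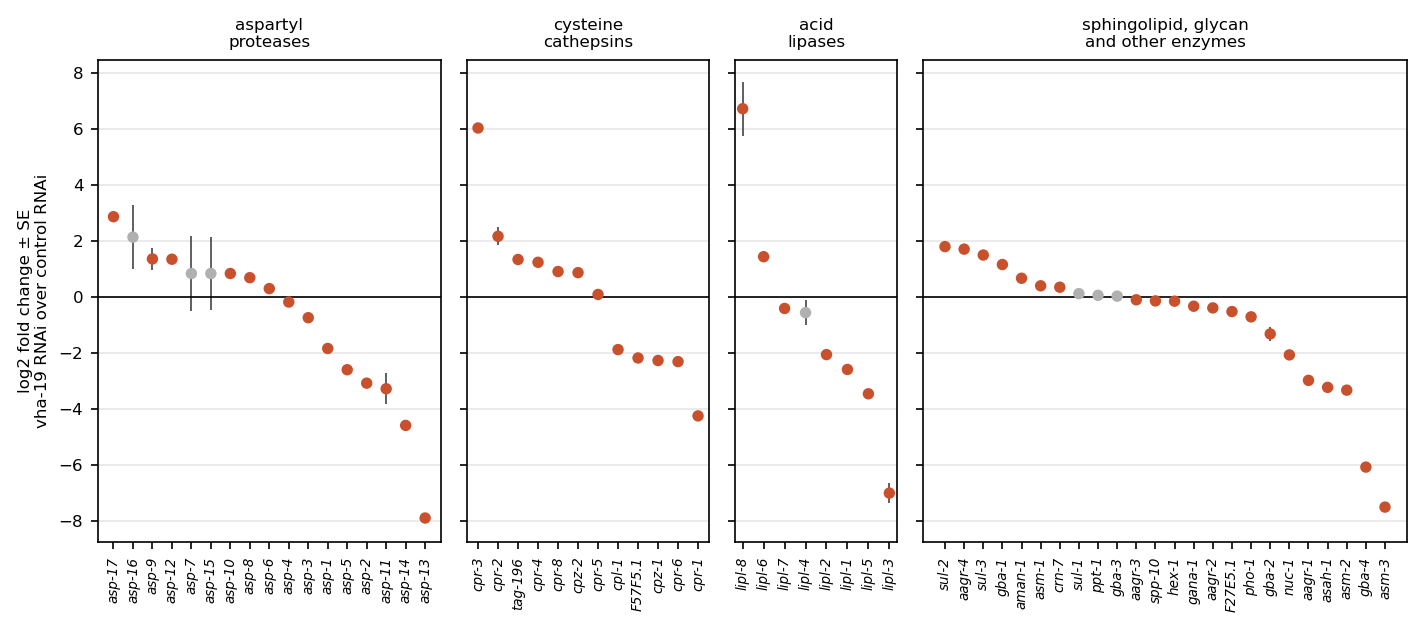
Log2 fold changes with SE (vertical axis, vha-19 RNAi over control RNAi, 3 libraries each) of every tested aspartyl protease, cysteine cathepsin, acid lipase and sphingolipid or glycan enzyme gene, orange where the adjusted p was under 0.05 and grey otherwise. Each class holds rises and falls, among them cpr-3 at 6.04 and asp-13 at -7.90; library totals place the median of all genes 0.54 higher, and asp-4 at 0.36 in place of -0.18.

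Genes of the lysosomal membrane gave 3 rises and 6 falls of 2-fold or more among 30 (median log2 fold change 0.03, turning to -0.15 with DESeq2 size factors; 8 rises and 3 falls of 2-fold or more with library totals), and neither share is above that over all genes. The Niemann-Pick C cholesterol transporter homologues were among the rises. ncr-1 had 114.2, 108 and 110.4 CPM under vha-19 RNAi, against 20.9, 22.6 and 21.3 CPM in controls (log2 fold change 2.36, SE 0.0533, edgeR adjusted p = 2.08e-29), and ncr-2 was at 1.76. cup-5, the mucolipin calcium channel gene, fell (log2 fold change -1.14), as did the cystinosin gene ctns-1 (-0.75) and the CD36-type scavenger receptor gene scav-4 (-3.53). The LAMP homologue lmp-1 was at a log2 fold change of 0.28.

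hlh-30, the homologue of TFEB, which switches on lysosome and autophagy genes in mammals, had 179.4, 181 and 198 CPM under vha-19 RNAi, against 89.3, 81.9 and 90.9 CPM in controls (log2 fold change 1.09, SE 0.0426, edgeR adjusted p = 1.71e-22). It was the 1 gene of the TORC1 and HLH-30 list to rise by 2-fold or more, against 5 falls of that size among 24 (median log2 fold change -0.26, turning to 0.28, with 2 rises and 0 falls of 2-fold or more, with library totals). sesn-1, which encodes sestrin, and nprl-2, a gene of the GATOR1 complex that restrains TORC1, were at a log2 fold change of -1.14 and -1.14. The Rag GTPase gene raga-1 was at a log2 fold change of -0.46, but 0.08 with library totals, and mxl-3, a repressor of lipase genes in the worm, at 0.15 (edgeR adjusted p = 0.0751).

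The autophagy receptor gene sqst-1, the homologue of p62, had 1064, 1054 and 1086 CPM under vha-19 RNAi, against 63.3, 59.1 and 68.4 CPM in controls (log2 fold change 4.07, SE 0.0406, edgeR adjusted p = 2.93e-39). The vha-19 libraries all lie far above the controls, with little spread within either group. lgg-1, whose product coats autophagosomes, stood at 949.9 ± 15.7 CPM under vha-19 RNAi against 369.7 ± 5.47 CPM in controls. Its relative lgg-2 stood at 295 ± 4.84 CPM under vha-19 RNAi against 201 ± 3.19 CPM in controls. bec-1, the Beclin homologue, stood at 76 ± 2.53 CPM under vha-19 RNAi against 44.5 ± 1.91 CPM in controls (SD, n = 3 each). Of the list as a whole, 5 of 28 genes rose and 2 fell by at least 2-fold (median log2 fold change -0.20, turning to 0.35, with 12 rises and 1 fall of 2-fold or more, with library totals). sqst-2 was at a log2 fold change of 1.52. sepa-1, a receptor that clears P granule proteins in embryos, was at a log2 fold change of -7.35.

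Transcription factors of the GATA family shape the worm gut and skin. elt-2, the main gut factor, had 54.4, 57.6 and 59 CPM under vha-19 RNAi, against 21.3, 20.1 and 20 CPM in controls (log2 fold change 1.48, SE 0.0519, edgeR adjusted p = 7.74e-24). Its partner elt-7 was at a log2 fold change of 1.08 and the skin factor elt-3 at 0.67, while egl-18, a factor of the seam cells, fell (-2.65). In the intestinal list 8 of 20 genes were higher and 2 lower by 2-fold or more (median log2 fold change 0.80). These are 40% and 10%, against 33.6% and 24.9% over all genes. With library totals the list gave 13 rises and 1 fall of 2-fold or more. Genes of the gut's apical face were among the rises, with the brush-border actin gene act-5 at 1414 ± 8.26 CPM under vha-19 RNAi against 648 ± 21.6 CPM in controls. The intermediate-filament organizer gene ifo-1 stood at 394 ± 5.35 CPM under vha-19 RNAi against 71.3 ± 1.55 CPM in controls (SD, n = 3 each). The filament gene ifb-2 was at a log2 fold change of 0.86. The gut esterase gene ges-1 fell (log2 fold change -2.65).

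Beyond rab-11.2 and arf-1.1, genes of membrane traffic were mixed. Of 35 Rab, Arf and related GTPase genes 6 rose and 3 fell by 2-fold or more (median log2 fold change 0.08, turning to -0.09 with DESeq2 size factors; 13 rises and 2 falls of 2-fold or more with library totals), with arl-7 also high (5.21). The early endosome gene rab-5 was at a log2 fold change of -0.43, but 0.12 with library totals, and the late endosome gene rab-7 was at -0.17, but 0.37 with library totals. rab-10, which serves basolateral recycling in the gut, was at 244 CPM under vha-19 RNAi against 244 CPM in controls (log2 fold change 0.00, edgeR adjusted p = 0.893). Of 21 tetraspanin genes 10 rose and 2 fell by 2-fold or more (median log2 fold change 0.87), with tsp-10 the deepest fall (-5.03). Endosome sorting genes gave 4 rises and 7 falls among 33 (median log2 fold change -0.18, turning to 0.36, with 8 rises and 4 falls of 2-fold or more, with library totals). The falls include sand-1 (log2 fold change -1.82) and ccz-1 (-1.64), whose products together activate Rab7, and the retromer genes vps-26 (-1.63) and vps-35 (-1.21). rme-8, an endosomal chaperone gene, was at a log2 fold change of -0.28, but 0.27 with library totals.

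The intracellular pathogen response is a set of genes that worms induce on infection of the gut by microsporidia or virus. Most of it rose, with 33 of 41 tested genes called higher (29 at least 2-fold) and 2 called lower (1 at least 2-fold; median log2 fold change 2.55; 35 rises and 0 falls of 2-fold or more with library totals). skr-5, a Skp1-related gene, had 46.6, 50.4 and 47.7 CPM under vha-19 RNAi, against 0.645, 1.0 and 1.37 CPM in controls (log2 fold change 5.58, SE 0.111, edgeR adjusted p = 5.69e-31). cul-6, the cullin that joins it in a ubiquitin ligase, stood at 59.9 ± 2.02 CPM under vha-19 RNAi against 7.94 ± 0.43 CPM in controls (SD, n = 3 each; log2 fold change 2.92). The F-box gene fbxa-158 (log2 fold change 5.86) and C31B8.4, now named pals-32 (5.12), rose as well. The regulators lay nearer to 0. The bZIP factor gene zip-1 was at a log2 fold change of 0.56, pals-22, which represses the response, at 0.51, and pals-25, which is needed for it when pals-22 is lost, at 0.19 (edgeR adjusted p = 0.185). pals-5, its usual reporter gene, stood at 0.502 CPM under vha-19 RNAi against 0.0789 CPM in controls (log2 fold change 2.59, edgeR adjusted p = 9.06e-05).

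Antimicrobial peptide genes rose in 17 of 19 and fell in 0, 14 of the rises being of 2-fold or more (median log2 fold change 2.23). cnc-4 had 40.6, 44.4 and 39.5 CPM under vha-19 RNAi, against 0.879, 2.06 and 1.67 CPM in controls (log2 fold change 4.75, SE 0.117, edgeR adjusted p = 2.26e-28). nlp-34 was at a log2 fold change of 4.59 and nlp-29, an epidermal peptide gene induced by wounds and fungi, at 3.48, and cnc-11 (5.17) and cnc-2 (1.90) rose too. Lysozymes went the other way. Of 13 lysozyme genes 11 fell and 2 rose by at least 2-fold (median log2 fold change -3.09). ilys-5 had 8.63, 6.7 and 6.47 CPM under vha-19 RNAi, against 1146, 1134 and 1149 CPM in controls (log2 fold change -7.30, SE 0.0604, edgeR adjusted p = 2.99e-41). lys-1 stood at 112 ± 4.85 CPM under vha-19 RNAi against 676 ± 10.7 CPM in controls. lys-4 stood at 5.23 ± 0.178 CPM under vha-19 RNAi against 96.2 ± 2.81 CPM in controls. lys-7 stood at 92.5 ± 4.64 CPM under vha-19 RNAi against 211 ± 3.68 CPM in controls (SD, n = 3 each). Against them, lys-3 had 73.2, 72.4 and 68 CPM under vha-19 RNAi, against 0.762, 1.24 and 1.19 CPM in controls (log2 fold change 6.06, SE 0.112, edgeR adjusted p = 6.55e-32).

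C-type lectins, secreted or membrane proteins many of which respond to infection, were split evenly on TMM-scaled libraries. With library totals 80 rose and 49 fell by 2-fold or more (median log2 fold change 0.66). Of 171 genes, 59 rose and 59 fell by 2-fold or more (median log2 fold change 0.12, turning to -0.05 with DESeq2 size factors), or 34.5% and 34.5% against 33.6% and 24.9% over all genes. clec-266 (log2 fold change -7.06), clec-218 (-6.20) and clec-190 (-5.37) led the falls. clec-186 stood at 2.78 ± 0.176 CPM under vha-19 RNAi against 84.6 ± 2.57 CPM in controls. clec-85 stood at 4.56 ± 0.0984 CPM under vha-19 RNAi against 34 ± 1.42 CPM in controls. clec-60 stood at 10.8 ± 0.886 CPM under vha-19 RNAi against 3.03 ± 0.332 CPM in controls (SD, n = 3 each). Saposin-like genes gave 7 rises and 8 falls among 25 (median log2 fold change -0.14, turning to 0.41 with library totals). spp-4 (log2 fold change -7.08) and spp-1 (-4.80), an antibacterial gene, lie at the other end from spp-20. F-box genes of the fbxa and fbxb families, a large and fast-evolving group, were 100 higher and 108 lower of 259 by 2-fold or more (median log2 fold change -0.10, turning to 0.44 with library totals), with fbxa-30 at 6.08. The pooled median hides a split, as most fbxb genes fell and most fbxa genes rose, with exceptions in both families. fbxa-161 had 2 pooled control counts and was 255-fold higher by pooled counts, with a 95% counting interval of 70.3 to 2107, while fbxb-41 had 2 pooled vha-19 counts and was 212-fold lower by pooled counts, with a 95% counting interval of 58 to 1755.

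The stress lists of the endoplasmic reticulum and of mitochondria had medians of opposite sign. In the endoplasmic reticulum 18 of 27 genes were higher and 9 lower, with 6 rises and 0 falls of 2-fold or more (median log2 fold change 0.50; 15 rises and 0 falls of 2-fold or more with library totals). hsp-4, the inducible BiP gene, had 1527, 1419 and 1470.1 CPM under vha-19 RNAi, against 595, 591 and 604 CPM in controls (log2 fold change 1.3, SE 0.0373, edgeR adjusted p = 1.88e-26). Its relative hsp-3 was at a log2 fold change of 0.68 and xbp-1, the factor behind the response, at 0.77. The choline kinase gene ckb-2 (log2 fold change 2.39) and abu-11 (2.79) rose more. In mitochondria 11 of 21 genes fell and 2 rose by 2-fold or more (median log2 fold change -1.1, and -0.55, with 2 rises and 3 falls of 2-fold or more, with library totals). hsp-60, the chaperonin gene, had 48, 47.5 and 49.2 CPM under vha-19 RNAi, against 379.6, 377 and 392 CPM in controls (log2 fold change -2.99, SE 0.0368, edgeR adjusted p = 6.9e-37). hsp-6, the mitochondrial Hsp70 gene, stood at 316 ± 8.92 CPM under vha-19 RNAi against 877 ± 16.16 CPM in controls (SD, n = 3 each). The protease gene spg-7 (log2 fold change -1.55) and the import gene tomm-22 (-1.58) fell, and the response's factor atfs-1 was at -0.42, but 0.12 with library totals.

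The cytosolic heat-shock list gave 5 rises and 3 falls of 2-fold or more among 20 (median log2 fold change -0.40, turning to 0.15, with 8 rises and 1 fall of 2-fold or more, with library totals). The small heat-shock gene hsp-17 had 247, 260.0 and 246 CPM under vha-19 RNAi, against 21.1, 19.6 and 19.6 CPM in controls (log2 fold change 3.64, SE 0.0495, edgeR adjusted p = 1.01e-35), and hsp-16.48 stood at 40 ± 3.08 CPM under vha-19 RNAi against 4.23 ± 0.724 CPM in controls (SD, n = 3 each). hsp-16.2 (log2 fold change 2.28), hsp-16.41 (1.65) and hsp-70 (1.29) rose but stayed low, and copies among the hsp-16 genes make their split uncertain. sip-1, a small heat-shock gene of oocytes and embryos, fell (log2 fold change -2.18). Genes of oxidative stress gave 2 rises and 10 falls among 24 (median log2 fold change -0.58, and -0.04, with 4 rises and 4 falls of 2-fold or more, with library totals). gst-4, the usual reporter of SKN-1, had 4.55, 6.3 and 5.04 CPM under vha-19 RNAi, against 29.4, 26.4 and 26.2 CPM in controls (log2 fold change -2.36, SE 0.089, edgeR adjusted p = 5.81e-23). gcs-1, which makes glutathione, was at a log2 fold change of -1.0 and sod-3, a manganese superoxide dismutase gene, at -0.67. The catalase gene ctl-2 was at a log2 fold change of -0.49, but 0.05 with library totals.

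Detoxification families held rises and falls, where 33.6% of all genes rose and 24.9% fell by 2-fold or more. Shares were 23.4% and 27.7% for glutathione S-transferases and 25.4% and 28.2% for cytochrome P450 genes. They were 23.8% and 33.3% for UDP-glucuronosyltransferases and 16.7% and 38.9% for hypoxia genes. Of 47 glutathione S-transferases 11 rose and 13 fell by 2-fold or more (median log2 fold change -0.05, turning to 0.49, with 17 rises and 10 falls of 2-fold or more, with library totals), from gst-38 (3.21) and gst-22 (3.01) to gst-10 (-4.42). Cytochrome P450 genes gave 18 rises and 20 falls among 71 (median log2 fold change 0.07, turning to -0.10 with DESeq2 size factors; 30 rises and 16 falls of 2-fold or more with library totals). cyp-25A1 had 0.0792, 0.159 and 0.159 CPM under vha-19 RNAi, against 35.8, 37.4 and 36.4 CPM in controls (log2 fold change -8.05, SE 0.147, edgeR adjusted p = 4.07e-32), and cyp-35A5 (-5.13) and cyp-13B2 (-5.07) fell as well, with cyp-35B1 at 0.56. UDP-glucuronosyltransferase genes gave 15 and 21 among 63 (median log2 fold change -0.31, turning to 0.23, with 23 rises and 17 falls of 2-fold or more, with library totals), with ugt-18 at 4.52, ugt-22 at -3.14 and ugt-53 at -5.74. Hypoxia genes gave 3 and 7 among 18 (median log2 fold change -0.13, turning to 0.41, with 5 rises and 6 falls of 2-fold or more, with library totals). Among them nhr-57 (log2 fold change 1.23) and F22B5.4 (2.16) rose, rhy-1 (-1.97) and the carbonic anhydrase gene cah-5 (-1.97) fell, and cysl-2 was at 0.56 and phy-2 at 0.25.

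Worms cannot make heme and take it from food. Of 18 iron and heme genes 7 rose and 5 fell by 2-fold or more (median log2 fold change 0.71), or 38.9% and 27.8% against 33.6% and 24.9% over all genes. The heme-responsive gene hrg-2 had 106, 107 and 107 CPM under vha-19 RNAi, against 1.11, 1.47 and 1.49 CPM in controls (log2 fold change 6.29, SE 0.0837, edgeR adjusted p = 5.68e-36). hrg-3, which carries heme out of the intestine, had 25.8, 30.7 and 24.3 CPM under vha-19 RNAi, against 1.93, 1.83 and 1.31 CPM in controls (log2 fold change 3.99, SE 0.131, edgeR adjusted p = 1.14e-24). Both are at most a few CPM in every control. The ferritin gene ftn-1 (log2 fold change -1.58), the metal importer gene smf-3 (-1.91) and the ferroportin gene fpn-1.2 (-4.22) fell, while the other ferritin gene ftn-2 was at 284 CPM under vha-19 RNAi against 291 CPM in controls (edgeR adjusted p = 0.384). In zinc homeostasis 2 rose and 6 fell among 21 (median log2 fold change -0.07, turning to 0.47, with 5 rises and 3 falls of 2-fold or more, with library totals). The metallothionein genes parted, with mtl-1 at 20.4 ± 3.34 CPM under vha-19 RNAi against 3.5 ± 0.645 CPM in controls. mtl-2 stood at 0.515 ± 0.142 CPM under vha-19 RNAi against 42.3 ± 3.77 CPM in controls (SD, n = 3 each). tag-141, now named zipt-17, rose (log2 fold change 2.24), and the zinc exporter genes cdf-2 (0.03, edgeR adjusted p = 0.799) and ttm-1 (0.02, edgeR adjusted p = 0.686) were not called.

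Genes that make unsaturated and long fatty acids were mostly lower, with 9 falls and 3 rises of 2-fold or more among 24 (median log2 fold change -0.34, turning to 0.20, with 5 rises and 5 falls of 2-fold or more, with library totals). fat-7, a stearoyl-CoA desaturase gene, had 0.673, 0.555 and 0.635 CPM under vha-19 RNAi, against 163, 160.3 and 164 CPM in controls (log2 fold change -8.02, SE 0.0877, edgeR adjusted p = 3.16e-38). Every vha-19 library holds under 1 CPM of it, and the groups do not overlap. Its paralogues fat-6 (log2 fold change -1.32) and fat-5 (-2.17) fell less, and the elongase gene elo-6 stood at 49.2 ± 7.06 CPM under vha-19 RNAi against 605 ± 7.06 CPM in controls (SD, n = 3 each). elo-8 rose (log2 fold change 2.54). sbp-1, the SREBP homologue, was at a log2 fold change of 0.78, and nhr-49, a nuclear receptor that controls fat genes, at -0.33, but 0.21 with library totals.

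The fatty acid breakdown list gave 19 rises and 34 falls of 2-fold or more among 93 (median log2 fold change -0.54). With library totals the median turned to 0.01, with 26 rises and 20 falls of 2-fold or more. The list takes in the dhs genes, of the short-chain dehydrogenase family, so its counts are not of fatty acid breakdown alone. acs-2, an acyl-CoA synthetase gene that feeds mitochondrial oxidation and is induced by fasting, had 87.9, 211 and 143 CPM under vha-19 RNAi, against 5.86, 4.42 and 4.35 CPM in controls (log2 fold change 4.91, SE 0.272, edgeR adjusted p = 4.35e-18). The vha-19 libraries differ among themselves but all lie above the controls. acox-3, now named acox-1.3, fell (log2 fold change -6.74). acdh-1, the entry enzyme of the propionate shunt, had 30.1, 32.07 and 31.3 CPM under vha-19 RNAi, against 1461, 1542 and 1460.0 CPM in controls (log2 fold change -5.58, SE 0.0593, edgeR adjusted p = 1.56e-38). The shunt's other enzymes fell too, with ech-6 at a log2 fold change of -3.12, F09F7.4 (now hach-1) at -3.04, Y38F1A.6 (now hphd-1) at -2.88 and alh-8 at -0.63. All 14 of 14 propionate genes fell, 8 by 2-fold or more (median log2 fold change -1.12, and -0.57 with library totals).

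In the methionine and one-carbon list 12 of 22 genes fell and 2 rose by 2-fold or more (median log2 fold change -1.18, and -0.64, with 2 rises and 7 falls of 2-fold or more, with library totals). sams-1, the main S-adenosylmethionine synthetase gene, had 194, 223 and 218.2 CPM under vha-19 RNAi, against 827, 863 and 865 CPM in controls (log2 fold change -2.01, SE 0.0506, edgeR adjusted p = 4.85e-28). mel-32, which encodes serine hydroxymethyltransferase, stood at 173 ± 4.58 CPM under vha-19 RNAi against 796 ± 18.3 CPM in controls. pmt-2, of phosphatidylcholine synthesis, stood at 184 ± 2.4 CPM under vha-19 RNAi against 768 ± 18.5 CPM in controls (SD, n = 3 each). sams-5 (log2 fold change 2.15) and cbs-2 (2.37) rose, and close copies among sams genes make their split uncertain. Sugar metabolism gave 15 falls and 3 rises among 31 (median log2 fold change -0.96, and -0.42, with 3 rises and 6 falls of 2-fold or more, with library totals). The glycogen phosphorylase gene T22F3.3, now pygl-1, stood at 241 ± 6.18 CPM under vha-19 RNAi against 1379 ± 17.8 CPM in controls. icl-1, of the glyoxylate cycle, stood at 403 ± 42.8 CPM under vha-19 RNAi against 133 ± 5.77 CPM in controls (SD, n = 3 each). gpd-1 (log2 fold change -3.25) and gpd-4 (-3.19) are near-identical and so uncertain. ldh-1 was at a log2 fold change of -0.93 and the gluconeogenic gene pck-1 at -0.17, but 0.37 with library totals.

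Nuclear genes of oxidative phosphorylation fell in 52 of 53 and rose in 1, 35 of the falls being of 2-fold or more (median log2 fold change -1.07, and -0.53, with 1 rise and 6 falls of 2-fold or more, with library totals). Their summed level was 9154 to 9382 CPM under vha-19 RNAi and 19403 to 20067 CPM in controls. atp-2, the beta subunit of ATP synthase, had 1140.3, 1159.6 and 1171 CPM under vha-19 RNAi, against 3027, 3027 and 3146 CPM in controls (log2 fold change -1.41, SE 0.0297, edgeR adjusted p = 3e-30). nuo-1 of complex I (log2 fold change -1.13), cyc-1 of complex III (-1.17) and W09C5.8, now cox-4, of complex IV (-0.79) fell. The deepest were sdha-2 (log2 fold change -2.06), the germline ATP synthase gene asb-1 (-1.81) and cox-11 (-1.71).

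Growth machinery was lower by different amounts. Mitochondrial ribosomal proteins fell in 65 of 66, 52 by 2-fold or more (median log2 fold change -1.22, and -0.68, with 0 rises and 14 falls of 2-fold or more, with library totals), with mrpl-12 at -2.01, mrps-10 at -1.88 and mrps-5 at -0.43, but 0.11 with library totals. Proteasome subunits fell in 32 of 33, 16 by 2-fold or more (median log2 fold change -0.98, and -0.44, with 0 rises and 0 falls of 2-fold or more, with library totals). The core subunit gene pas-4 had 89.4, 87.1 and 86.8 CPM under vha-19 RNAi, against 239.8, 234.7 and 242 CPM in controls (log2 fold change -1.44, SE 0.0358, edgeR adjusted p = 2.95e-28), and pas-5 (-1.17), pbs-5 (-0.92) and the base subunit gene rpt-3 (-0.70) fell. Synthetases of tRNA and translation factors fell in 63 of 73, 24 by 2-fold or more (median log2 fold change -0.83, and -0.28, with 2 rises and 4 falls of 2-fold or more, with library totals), with the germline initiation factor gene iff-1 at -1.82. eef-2 stood at 5984 ± 124 CPM under vha-19 RNAi against 5960.3 ± 30 CPM in controls (SD, n = 3 each; edgeR adjusted p = 0.856). Cytosolic ribosomal proteins fell in 79 of 83 with 3 by 2-fold or more (median log2 fold change -0.59, and -0.04, with 3 rises and 0 falls of 2-fold or more, with library totals). rps-6 was at a log2 fold change of -0.66 and rpl-11.1 at -1.27.

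Oocyte genes fell together. All 37 of 37 fell, 36 by 2-fold or more (median log2 fold change -3.06). oma-2, whose product binds RNA in maturing oocytes, had 34.3, 35.7 and 37.6 CPM under vha-19 RNAi, against 734, 747 and 765 CPM in controls (log2 fold change -4.38, SE 0.0406, edgeR adjusted p = 5.31e-40). pos-1, a regulator of early embryonic fate, had 67.4, 72.4 and 72.6 CPM under vha-19 RNAi, against 942, 956 and 978 CPM in controls (log2 fold change -3.76, SE 0.0389, edgeR adjusted p = 7.07e-39). Eggshell genes fell with them, chs-1 to 25.2 ± 2.06 CPM under vha-19 RNAi against 503 ± 5.99 CPM in controls and cpg-3 to 12.69 ± 0.976 CPM under vha-19 RNAi against 269 ± 0.974 CPM in controls (SD, n = 3 each). lin-41, which holds oocytes before maturation, was at a log2 fold change of -3.25 and oma-1 at -2.62.

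Lists of earlier germline stages had medians nearer to 0. In the stem cell and P granule list 22 of 25 fell and 1 rose by 2-fold or more (median log2 fold change -1.68; 2 rises and 14 falls of 2-fold or more with library totals). meg-1 (log2 fold change -5.17), which organizes P granules in embryos, lies at the low end, and glp-1, the Notch receptor gene of germline stem cells, stood at 60.7 ± 1.39 CPM under vha-19 RNAi against 268 ± 0.468 CPM in controls (SD, n = 3 each). pgl-1 (log2 fold change -1.59) and glh-1 (-1.27), of P granules, fell less. Of 28 meiotic genes 25 fell by 2-fold or more (median log2 fold change -1.47; 0 rises and 13 falls of 2-fold or more with library totals), with the crossover gene cosa-1 at -2.21, the axis gene him-3 at -1.39 and the synapsis gene syp-1 at -0.46, but 0.09 with library totals. Cell cycle genes fell by 2-fold or more in 44 of 56 (median log2 fold change -1.62; 3 rises and 29 falls of 2-fold or more with library totals). mcm-7, of the replicative helicase, had 49.2, 47.5 and 52.4 CPM under vha-19 RNAi, against 426, 413 and 442 CPM in controls (log2 fold change -3.1, SE 0.0401, edgeR adjusted p = 2.45e-36), and pcn-1 (-2.66), rnr-1 (-2.79) and cyb-3 (-3.33) fell.

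Sperm genes rose in 69 of 71, 53 by 2-fold or more, and fell in 1 (median log2 fold change 1.29). In hermaphrodites sperm are made in the last larval stage, before oocytes. gsp-3, a sperm phosphatase gene with a near copy in gsp-4, had 121, 124 and 123 CPM under vha-19 RNAi, against 27.1, 28.7 and 29.4 CPM in controls (log2 fold change 2.11, SE 0.0428, edgeR adjusted p = 8.57e-31). spe-11, a paternal gene needed by the embryo, was at a log2 fold change of 1.77, and spe-42 (2.68) and spe-10 (2.29) rose. In the somatic gonad list 4 of 10 rose and 2 fell by 2-fold or more (median log2 fold change 0.81; 8 rises and 0 falls of 2-fold or more with library totals), with lim-7 of the sheath at 0.48.

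Most cuticle collagen genes rose. Of 162 collagen genes 97 rose and 23 fell by 2-fold or more (median log2 fold change 1.76; 103 rises and 6 falls of 2-fold or more with library totals), yet collagens held 2.65% ± 0.0283 of gene counts in the vha-19 group and 2.58% ± 0.109 in controls (SD, n = 3 each). rol-6, a body-shape collagen gene, had 98.7, 89.6 and 92 CPM under vha-19 RNAi, against 6.21, 4.95 and 6.14 CPM in controls (log2 fold change 4.02, SE 0.0755, edgeR adjusted p = 1.03e-31). bli-1, of the adult cuticle's struts, stood at 124 ± 8.08 CPM under vha-19 RNAi against 11.23 ± 1.53 CPM in controls. col-10 stood at 134 ± 8.49 CPM under vha-19 RNAi against 22.3 ± 3.237 CPM in controls. The furrow collagen gene dpy-7 stood at 27.9 ± 2.01 CPM under vha-19 RNAi against 5.04 ± 0.339 CPM in controls (SD, n = 3 each). col-101 (log2 fold change -4.23) and col-19 (-0.94) fell.

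In the moulting list 49 of 81 genes rose and 5 fell by 2-fold or more (median log2 fold change 1.42). mlt-10 had 67.6, 68.6 and 71.1 CPM under vha-19 RNAi, against 16.24, 15.9 and 18.8 CPM in controls (log2 fold change 2.02, SE 0.0548, edgeR adjusted p = 3.9e-27). The Hedgehog-related genes grl-21 (log2 fold change 4.67) and grd-2 (4.0) and the patched-related ptr-22 (4.36) rose more. noah-1, a matrix protein gene, was at a log2 fold change of 1.28. nhr-23 was at a log2 fold change of -0.44, but 0.10 with library totals and nhr-25 at -0.42, but 0.12 with library totals; both encode receptors that drive moults. lin-42, a period homologue that cycles with the moults, stood at 78.8 ± 7.93 CPM under vha-19 RNAi against 14.1 ± 1.05 CPM in controls (SD, n = 3 each), with the late timing genes lin-29 (log2 fold change 0.88) and mab-10 (1.03) and the early one lin-14 (0.84) higher as well. Of 14 heterochronic genes 3 rose and 1 fell by 2-fold or more (median log2 fold change 0.58; 7 rises and 1 fall of 2-fold or more with library totals), and of 37 astacin metalloproteases 20 rose and 3 fell (median 1.23; nas-10 5.96, nas-6 4.26).

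Most genes of neurons and pharynx rose. Neuropeptide genes rose by 2-fold or more in 81 of 106 and fell by as much in 0 (median log2 fold change 1.38). Of these 106 genes, 7 are also in the antimicrobial peptide list, among them nlp-34 (4.59), the largest rise. egl-3, the convertase that matures neuropeptides, had 230.4, 225 and 242 CPM under vha-19 RNAi, against 90.2, 90.7 and 94.7 CPM in controls (log2 fold change 1.34, SE 0.0362, edgeR adjusted p = 3.58e-27). flp-1 was at a log2 fold change of 1.29. Of 31 general neuronal markers 24 rose and 5 fell, 10 and 3 by 2-fold or more (median log2 fold change 0.76; 22 rises and 2 falls of 2-fold or more with library totals), with rab-3 at 1.24, snb-1 at 0.74, the syntaxin gene unc-64 at 2.21 and unc-119 at -0.45, but 0.09 with library totals. tdc-1, which makes tyramine in a few neurons and in gonadal sheath cells, fell (log2 fold change -2.87). Summed levels of the neuronal markers were 2226 to 2239.7 CPM under vha-19 RNAi and 1625 to 1652 CPM in controls.

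All 14 of 14 pharynx genes rose, 9 by 2-fold or more (median log2 fold change 1.24; 14 rises and 0 falls of 2-fold or more with library totals), with the pharyngeal myosin gene myo-2 at 238 ± 12.8 CPM under vha-19 RNAi against 116 ± 7.94 CPM in controls (SD, n = 3 each) and phat-1 at 3.32. Body-wall muscle genes gave 0 rises and 3 falls of 2-fold or more among 26 (median log2 fold change -0.43, turning to 0.12, with 2 rises and 1 fall of 2-fold or more, with library totals). The myosin heavy chain genes parted. unc-54 stood at 1348 ± 60.6 CPM under vha-19 RNAi against 2208 ± 117 CPM in controls. myo-3 stood at 292 ± 27.2 CPM under vha-19 RNAi against 158.3 ± 4.86 CPM in controls (SD, n = 3 each). The troponin genes tnt-2 (log2 fold change -1.78), unc-27 (-1.41) and pat-10 (-1.33) fell by the most. Of 4 coelomocyte genes 2 rose and 1 fell by 2-fold or more, with unc-122 at a log2 fold change of 0.96 and cup-4 at 1.29.

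In insulin signalling the receptor gene daf-2 (-0.14, but 0.40 with library totals) and the FOXO factor gene daf-16 (0.51) lay near the median of all genes, while pqm-1, a factor that acts opposite DAF-16, had 251, 261 and 256 CPM under vha-19 RNAi, against 22.7, 21.9 and 21.8 CPM in controls (log2 fold change 3.53, SE 0.0423, edgeR adjusted p = 2.97e-37). Of 25 pathway and target genes 9 rose and 8 fell by 2-fold or more (median log2 fold change 0.02, turning to -0.16 with DESeq2 size factors). The target dod-24 fell (log2 fold change -3.38). Insulin-like peptide genes gave 12 rises and 3 falls among 31 (median log2 fold change 0.76; 19 rises and 3 falls of 2-fold or more with library totals), with the agonist gene ins-7 at 33.6 ± 2.05 CPM under vha-19 RNAi against 2.64 ± 0.185 CPM in controls (SD, n = 3 each), ins-34 at -5.05 and daf-28 at 7.69 CPM under vha-19 RNAi against 7.6 CPM in controls (edgeR adjusted p = 0.87). Nuclear hormone receptor genes, 213 in all, rose by 2-fold or more in 100 and fell in 12 (median log2 fold change 0.97). nhr-231 rose (log2 fold change 2.98), and nhr-114 (-3.16) and nhr-2 (-4.30) fell. Bestrophin and two-pore channel genes gave 30 rises and 5 falls among 67 (median log2 fold change 0.89; 47 rises and 2 falls of 2-fold or more with library totals), with best-1 at 65.6 ± 2.71 CPM under vha-19 RNAi against 2.03 ± 0.409 CPM in controls (SD, n = 3 each). Amino acid and peptide transporters gave 11 and 8 among 27 (median log2 fold change 0.49; 15 rises and 4 falls of 2-fold or more with library totals), with the intestinal peptide transporter gene pept-1 at 0.71 and snf-4 at 3.79.

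**Figure D4:**
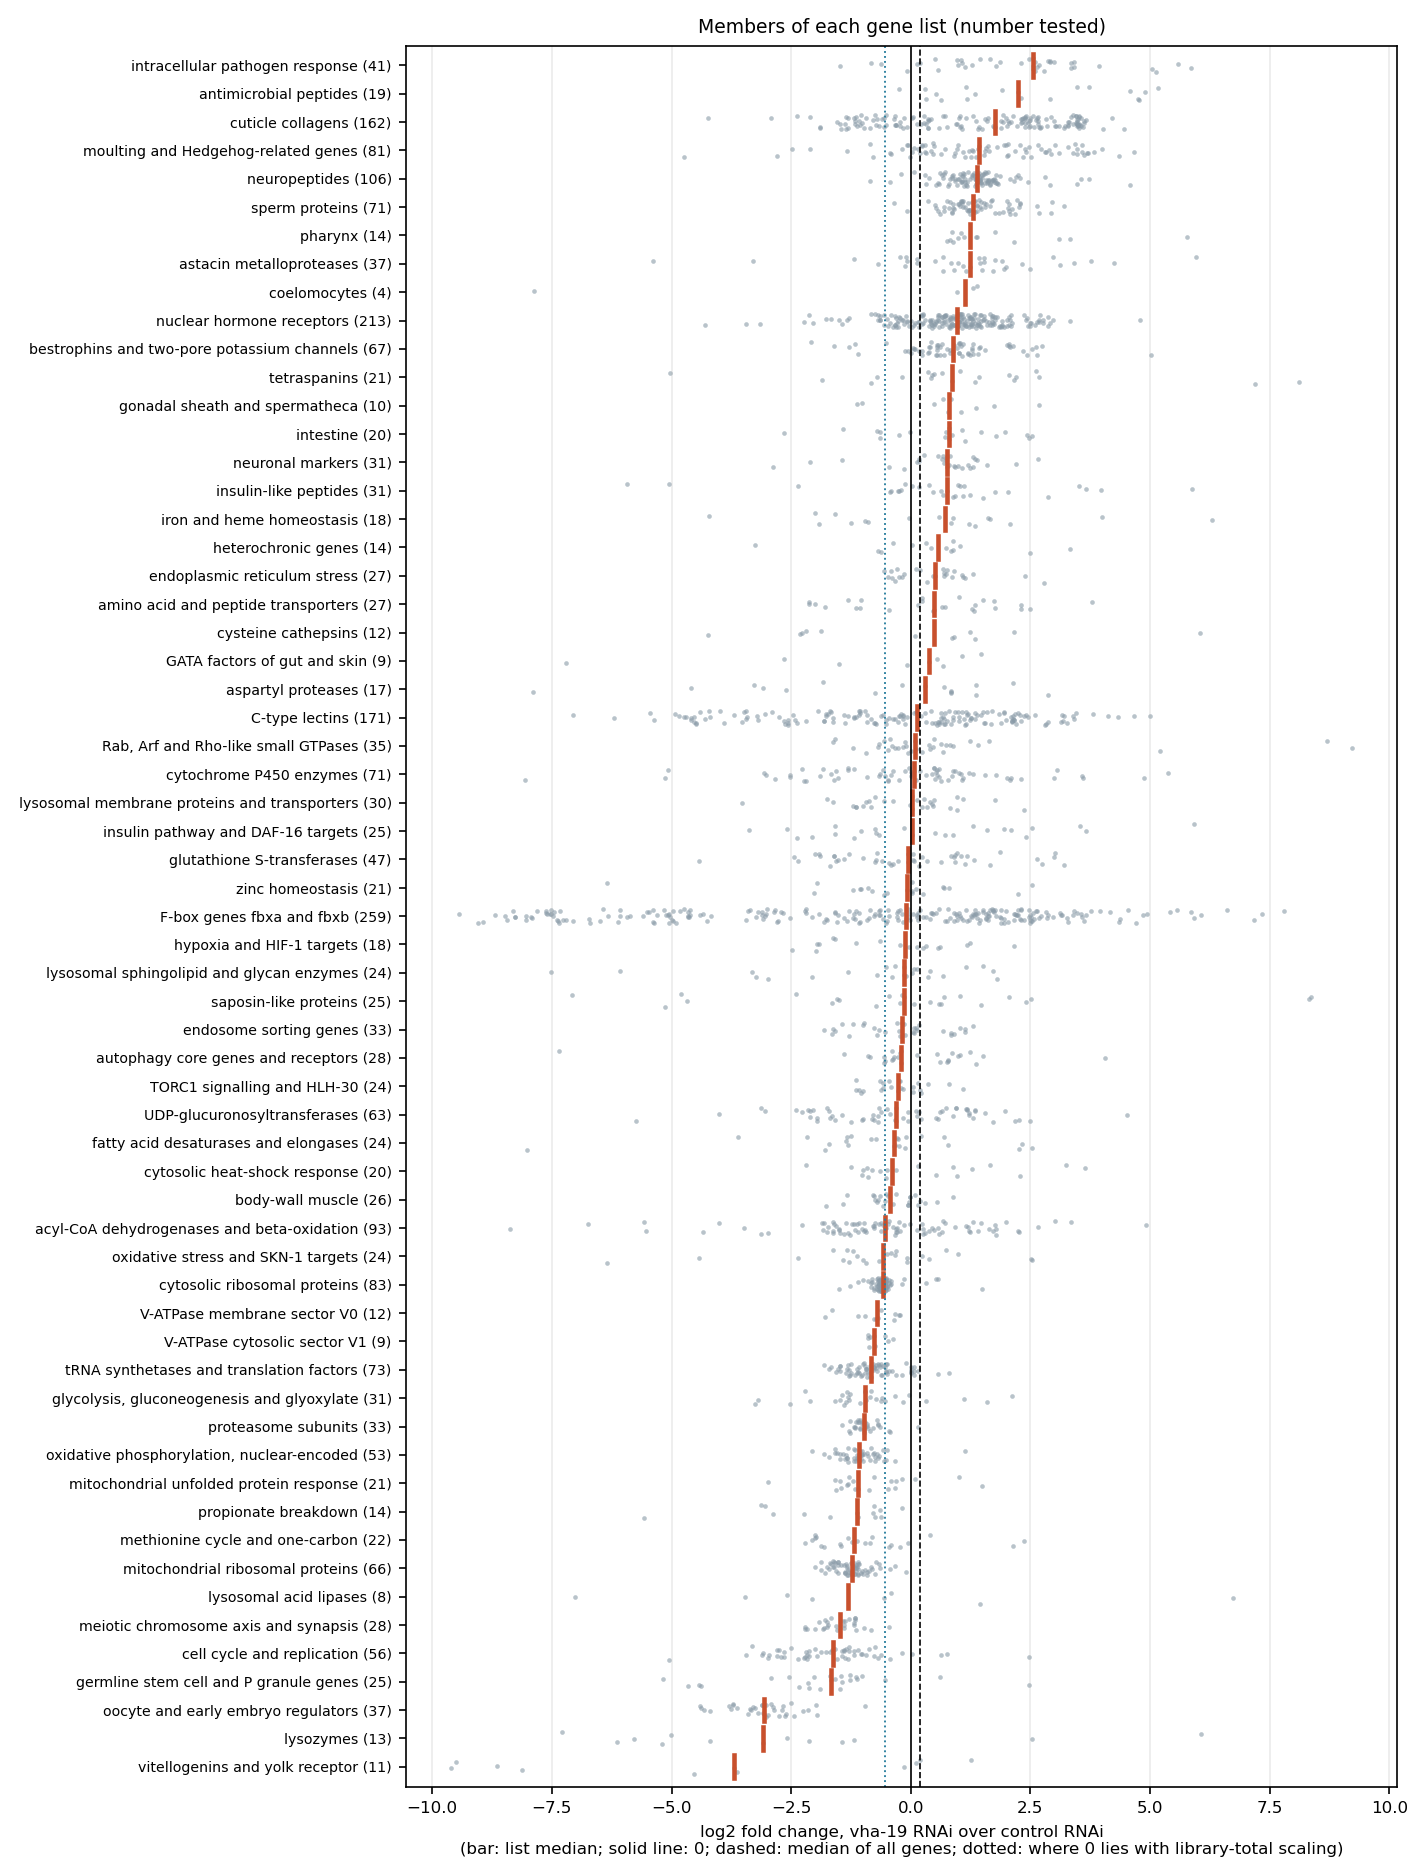
Log2 fold changes (horizontal axis, vha-19 RNAi over control RNAi) of every tested member of 61 gene lists as points, with each list's median as a bar, ordered by median; the dashed line is the median of all genes and the dotted line is where 0 lies with library totals. Medians run from 2.55 in the intracellular pathogen response to -3.70 in the yolk list, and medians between the dotted and solid lines change sign with library totals.

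Set directly against vha-16 RNAi, vha-19 RNAi gave fewer large differences than against control RNAi. Of 17043 genes 1289 were higher and 1672 lower (17.4% in all) by edgeR, while 18 were higher and 71 lower by 2-fold or more (0.522%). The higher count was 31, 31 and 30 without vha-16 replicate 1, 2 and 3, and 72 to 75 of the 89 genes were called again in those fits. DESeq2's Wald test gave 9 higher and 37 lower, a filter at a mean of 5 CPM gave 7 and 20, and edgeR's glmTreat, which tests against a fold of 2, gave 0 and 13. The genes from the 5% to the 95% quantile lay between -0.44 and 0.38 in log2 fold change. Each target was lower in its own group. vha-19 had 224, 223 and 206 CPM under vha-19 RNAi, against 319, 321 and 314 CPM in vha-16 libraries (log2 fold change -0.55, SE 0.0338, edgeR adjusted p = 1.27e-14). vha-16 had 371, 384 and 382 CPM under vha-19 RNAi, against 269, 276 and 262 CPM in vha-16 libraries (log2 fold change 0.49, SE 0.0328, edgeR adjusted p = 9.51e-14). The groups do not overlap for either gene, as in 5150 of the 17043 genes of this comparison. None of the 21 V-ATPase genes differed by 2-fold or more, where 0.522% of all genes did, and vha-6 was at a log2 fold change of -0.14. rab-11.2 (log2 fold change 0.15), arf-1.1 (-0.04), tsp-1 (0.21) and sqst-1 (-0.26) lay close to 0, while spp-20 was lower (-0.53, edgeR adjusted p = 5.97e-12).

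Antimicrobial peptide genes were mostly lower than under vha-16 RNAi. The peptide list had a median of -0.62, with 13 of 19 lower against 9.81% over all genes, and 3 lower by 2-fold or more against 0.417%. cnc-2 had 0.911, 0.793 and 0.993 CPM under vha-19 RNAi, against 3.1, 3.18 and 2.97 CPM in vha-16 libraries (log2 fold change -1.77, SE 0.173, edgeR adjusted p = 8.97e-10). nlp-29 was at a log2 fold change of -0.78. The collagen gene col-113 had 78.1, 66.8 and 73.2 CPM under vha-19 RNAi, against 189.8, 199 and 193 CPM in vha-16 libraries (log2 fold change -1.42, SE 0.0422, edgeR adjusted p = 6.5e-23). Its groups do not overlap, by the rule that chose it. The largest falls were nspe-7 (log2 fold change -2.07), Y49F6B.12 (-1.73), C09G9.8 (-1.64), C29F3.3 (-1.63) and C08E8.3 (-1.56). The largest rises were Y47D7A.6 (log2 fold change 1.34), decr-1.1 (1.14), F07C4.12 (1.11), the collagen gene col-179 (1.07), F23D12.11 (1.07) and Y57E12B.11 (1.07).

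The difference from vha-6 RNAi was wider. Of 17043 genes 5021 were higher and 4938 lower (58.4% in all) by edgeR, and a difference of at least 2-fold was called for 1191 higher and 1072 lower genes (13.3%). V-ATPase genes were lower by 2-fold or more in 9 of 12 for V0 and 8 of 9 for V1, against 6.29% over all genes. vha-12 had 359, 363 and 357 CPM under vha-19 RNAi, against 1388, 1339 and 1379 CPM under vha-6 RNAi (log2 fold change -1.93, SE 0.0308, edgeR adjusted p = 2.31e-33). vha-6 itself was higher under vha-19 RNAi (log2 fold change 0.30), and vha-19 (-1.85) and vha-16 (-1.2) were lower. Aspartyl proteases were lower by 2-fold or more in 14 of 17 (median log2 fold change -3.98), lysozymes in 10 of 13 and C-type lectins in 73 of 171. asp-3 had 679, 663 and 667 CPM under vha-19 RNAi, against 6989, 6603 and 6832 CPM under vha-6 RNAi (log2 fold change -3.35, SE 0.0359, edgeR adjusted p = 2.93e-38). asp-1 was lower as well (log2 fold change -4.07), whereas asp-4 was higher (log2 fold change 1.03, edgeR adjusted p = 5.53e-24). Heme genes were also lower than under vha-6 RNAi, with hrg-3 at a log2 fold change of -3.2 and hrg-2 at -1.18.

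Other genes were higher than under vha-6 RNAi. rab-11.2 had 296, 282 and 280.1 CPM under vha-19 RNAi, against 1.92, 1.83 and 2.13 CPM under vha-6 RNAi (log2 fold change 7.19, SE 0.0753, edgeR adjusted p = 1.5e-38). Y41C4A.11 had 5421, 5715 and 5546 CPM under vha-19 RNAi, against 28.6, 26.6 and 26.7 CPM under vha-6 RNAi (log2 fold change 7.67, SE 0.0869, edgeR adjusted p = 1.24e-37). Neither gene was high under vha-6 RNAi. spp-20 (log2 fold change 7.61), F22E5.6 (7.75), Y37H2A.11 (8.05), Y57E12B.11 (7.61) and the arrestin-domain gene arrd-11 (7.38) were higher, and arf-1.1 was at 5.87. Autophagy genes were higher by 2-fold or more in 5 of 28 and lower in 0 (median log2 fold change 0.69), with sqst-1 at 1.80 and bec-1 at 1.40. Antimicrobial peptides were higher by as much in 11 of 19, against 6.99% over all genes. The largest falls were clec-9 (log2 fold change -9.0), comt-2 (-8.26), F58E6.8 (-8.22), spp-4 (-7.40), ech-9 (-7.16) and clec-70 (-7.16). Of the oocyte genes, 0 were higher and 0 lower by 2-fold or more among 37 (median log2 fold change 0.00).

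**Figure D5:**
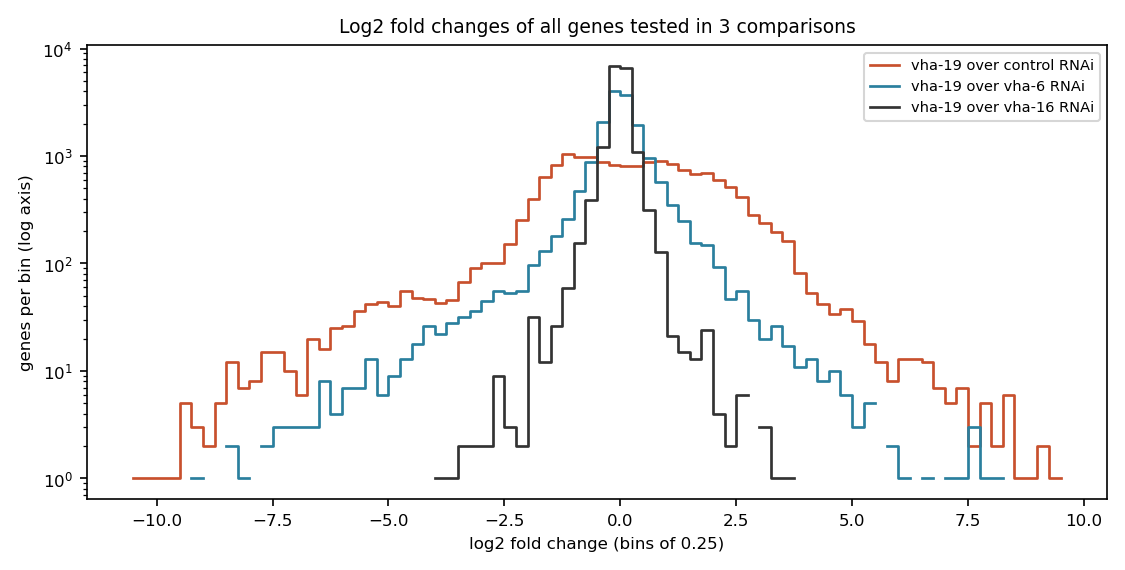
Number of genes (vertical log axis) in bins of log2 fold change 0.25 wide (horizontal axis) for vha-19 RNAi over control RNAi, over vha-6 RNAi and over vha-16 RNAi, each from 3 libraries a group and 17043 genes. The comparison with control is the widest, with 9970 calls of 2-fold or more against 2263 with vha-6 RNAi and 89 with vha-16 RNAi.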

How the data were processed

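RNA of whole worms was sequenced on a BGISEQ-500 after polyA enrichment, per the labels' protocols. The authors deposited raw counts per gene, and STAR 2.73a, edgeR 3.24.3 and the builds WBcel235 and ce11 are named in the submitters' processing notes; the sources used here do not give the counting program or its strand setting, so overlapping and antisense genes cannot be told apart. All 12 libraries (21981854 to 22553227 counts in genes) were fitted together by treatment with edgeR 4.0.16 in R 4.3.3, with filterByExpr (1424 of 18467 genes removed), TMM scaling, the quasi-likelihood F-test and Benjamini-Hochberg adjustment over 17043 genes. The 3 rows of unassigned counts stayed out of library sizes and tests. Over the 12 libraries, alignments to more than 1 place were 7.616 to 15.35% of all listed counts, those on no feature 0.6845 to 1.315% and ambiguous ones 0.8552 to 1.011%. A 2-fold call needs an adjusted p under 0.05 and an absolute log2 fold change of at least 1. The fit was tested on simulated data in which few genes changed, as many up as down. That test cannot check the choice of scaling, because most genes changed in the real comparison. Gene positions and biotypes came from Ensembl release 115 for 16935 genes.

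The comparison, the 61 gene lists and the tests were chosen with earlier results of these data known. Named genes are the targets, the 12 largest rises and 12 largest falls of at least 5 CPM with groups that do not overlap, the 10 largest gains and losses in CPM, key members marked in each list with up to 3 of its largest changes, and the 6 largest each way against vha-16 and vha-6 RNAi. Besides these, asp-6 and asp-17 were chosen after their values were seen. Alternatives were DESeq2 1.42.0 size factors and Wald test, library totals, other filters, the compared groups alone, a replicate block, glmTreat and leaving out each library. Where 1 group held 1 to 3 pooled counts, a ratio of pooled counts with an exact 95% interval, which covers counting error only, is given in place of a fitted fold.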

Additional observations from a re-analysis of the deposited data

Results flagged for a closer look

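Counts that fell on no annotated feature, which enter no comparison of genes, made up 1.252%, 1.259% and 1.294% of all listed counts in the vha-19 libraries, against 0.6845 to 0.702% in the control libraries. All 3 vha-19 libraries lie above every control. The share was 1.274 to 1.315% under vha-16 RNAi and 0.9905 to 0.9996% under vha-6 RNAi. Counts assigned to more than 1 gene were 0.9746 to 0.9936% in the vha-19 libraries and 0.8552 to 0.8734% in controls.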

How the results depend on the processing

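Counts of called genes stayed within 1.5 times of the reported values in 50 checks and moved further in 5. The 5 CPM filter tests fewer genes and glmTreat asks for a larger change; for the Wald test the cause was not tested. A filter at a mean of 5 CPM gave 6266 genes of 2-fold or more against control, 27 against vha-16 RNAi and 1395 against vha-6 RNAi. Against vha-16 RNAi, DESeq2's Wald test gave 46 and edgeR's glmTreat, which tests against a fold of 2, gave 13. Leaving out 1 library at a time gave 15152 to 15340 called genes and 10003 to 10062 of 2-fold or more against control, 80 to 102 against vha-16 RNAi and 2289 to 2313 against vha-6 RNAi. No left-out library moved a total by over 1.5 times, but without vha-16 replicate 1, 2 and 3 the genes higher by 2-fold or more than under vha-16 RNAi numbered 31, 31 and 30 in place of 18. Correlations of deviations between libraries of the 2 groups lay between -0.035 and 0.019, so no pairing by replicate number was visible. With so little spread within groups, they cannot show that same-numbered libraries were handled apart. A replicate block gave 15306 and 9969 genes against control, 89 against vha-16 RNAi and 2256 against vha-6 RNAi.

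Some directions turned, and the cause was not tested. With library totals the log2 fold changes became positive for asp-4 0.36, atfs-1 0.12, ctl-2 0.049, daf-2 0.4, ftn-2 0.51, mrps-5 0.11, nhr-23 0.1, nhr-25 0.12, nhr-49 0.21, pck-1 0.37, rab-10 0.54, rab-5 0.12, rab-7 0.37, raga-1 0.082, rme-8 0.27, syp-1 0.085, unc-119 0.092, unc-32 0.21 and vha-16 0.32. Under the 5 CPM filter they were positive for daf-2 0.039, ftn-2 0.15, pck-1 0.013, rab-10 0.18 and rab-7 0.0096. DESeq2's size factors and its Wald test both made the log2 fold changes negative for cpr-5 -0.085, eef-2 -0.17 and ttm-1 -0.15. Of the checks of list medians 410 stayed within 1 SD of the medians in the 3 vha-19 libraries, 362 moved further and 21 turned. Medians of 0.1 or more in size turned with library totals for sphingolipid and glycan enzymes 0.4, TORC1 and HLH-30 genes 0.28, autophagy genes 0.35, endosome sorting genes 0.36, saposin-like proteins 0.41, F-box genes 0.44, heat-shock genes 0.15, UDP-glucuronosyltransferases 0.23, hypoxia genes 0.41, desaturases and elongases 0.2, fatty acid breakdown 0.0061 and body-wall muscle genes 0.12. With the 5 CPM filter they turned for aspartyl proteases -0.28, autophagy genes 0.14, saposin-like proteins 0.0052, F-box genes 2.1 and hypoxia genes 0.32. The compared groups alone gave aspartyl proteases -0.13. C-type lectins were at -0.046 with DESeq2's size factors and -0.048 with its Wald test, and saposin-like proteins at 0.013 without control replicate 3. Of the other single-gene checks 4288 kept direction and call, 18 lost a call and 22 gained one. Depth limits genes of under about 1 CPM, for which a few counts decide a fold.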
